A study of Mus musculus with 8 samples.

Results

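The genes in view here were the collagen chains, taken as every gene whose symbol was Col followed by a number, the letter a and a number, which gave 44 of the 31010 genes listed. Collagens are trimers of alpha chains wound into a triple helix, secreted mostly by mesenchymal cells such as fibroblasts and assembled outside the cell into fibrils, sheets and filaments. Type I and type III collagen form the fibrils of connective tissue, type IV forms the network of basement membranes, including the one on which spermatogonia rest, and fibril-associated and transmembrane chains take more restricted roles. Fibroblasts that feed a germ cell culture are a strong source of several of these chains, so the chains were examined for which of them moved together between lines, and with fibroblast markers that are not collagens.

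The RNA of 8 GS (germline stem) lines had been sequenced, a kind of spermatogonial culture that self-renews with FGF2 and GDNF. All lines were of WT genotype and B6 background and came from F1 mice, with CD9-sorted spermatogonia of mature testes as the source. The 4 control lines (29, 37, 44 and 45, treatment "no") came from offspring of natural mating and the 4 ICSI lines (11, 17, 20 and 21) from offspring of intracytoplasmic sperm injection, in which a sperm is placed into the oocyte by needle. The study's gene expression methods describe plating the cultures on gelatin to take out embryonic fibroblasts before collection. The labels do not give the sex of the embryos or the age of the mice, and the line numbers recur as numbers of individual F1 mice in the study's supplement. The p-values measure the spread between these lines. The sample titles were in 2 styles. The titles of lines 29, 37, 11 and 17 were joined by hyphens (label form 1) and those of lines 44, 45, 20 and 21 were not (label form 2). The study's methods name STAR 2.7.9a and HTSeq 0.13.5 without setting any lines apart, and a single table holds all values. The labels of form 1 listed the same versions, but those of form 2 listed STAR 2.6.0c and HTSeq 0.11.2. Label form was therefore treated as a possible technical batch.

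The recovered depth was 24657156 to 26605674 reads in label form 1 and 32298675 to 44191558 in label form 2. All 15 germ cell markers examined were tested, with summed levels of 1260 to 1780 FPKM over the control and 1277 to 1761 FPKM over the ICSI lines, so the labelled cell type had its markers. None of the 15 passed a test of rise or fall with the fibroblast markers described below. Sertoli, Leydig, endothelial, macrophage and cartilage or bone lists held 1 to 3 tested genes each, and none of them passed that test. Of 4 myoid and smooth muscle markers tested, Acta2 and Tagln rose, and the list of 6 summed to 10.2 to 29 FPKM in the control and 16.2 to 23.3 FPKM in the ICSI lines. Its part in the collagen results was not tested.

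FPKM, fragments per kilobase of gene scaled to library size, allows levels to be compared between genes. Of the 44 chains, 24 had a mean of at least 1 FPKM over the 8 lines and were tested. The other 20 had means of 0.0128 to 0.667 FPKM. A gene of 1 kb reached 0.068 to 0.12 FPKM with 3 reads, and these limits cover counting error only. The 44 chains together took 0.143% of the recovered reads in control line 45 and 0.624% in control line 29. Their summed level was 666, 212, 568 and 180 FPKM in control lines 29, 37, 44 and 45 and 218, 298, 381 and 266 FPKM in ICSI lines 11, 17, 20 and 21. Both the highest and the lowest totals were in control lines, and all ICSI lines lay between them.

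The promoters of the chains are shown first, since the question is which chains vary together. RefSeq windows on GRCm38.p6 (the assembly of mm10) were found for 35 of the 44 chains, and the 250 bases before the start were read. The 4 windows below lie on no annotated exon, Col3a1 and Col8a1 as chains that followed the fibroblast markers and Col13a1 and Col25a1 as chains that did not. They are written 5′ to 3′ on the strand of the gene. Capitals mark matches, on either strand, to the TATA box (searched as TATAAA), the CCAAT box (searched by the letters of its name) and the GC box (searched as GGGCGG). The AP-1 site, searched as TGAGTCA, is in none of the 4.

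Col3a1, chr1:45311288-45311537, plus strand: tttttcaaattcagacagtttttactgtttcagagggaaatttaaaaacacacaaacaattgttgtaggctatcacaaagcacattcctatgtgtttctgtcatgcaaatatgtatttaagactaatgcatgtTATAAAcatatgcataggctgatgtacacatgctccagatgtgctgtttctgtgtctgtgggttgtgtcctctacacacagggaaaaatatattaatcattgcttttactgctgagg
Col8a1, chr16:57754738-57754987, minus strand: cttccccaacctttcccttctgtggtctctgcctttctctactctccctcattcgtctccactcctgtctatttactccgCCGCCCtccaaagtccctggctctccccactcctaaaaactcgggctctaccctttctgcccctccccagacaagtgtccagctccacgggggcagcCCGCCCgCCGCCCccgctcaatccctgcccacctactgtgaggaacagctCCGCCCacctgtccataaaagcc
Col13a1, chr10:61979109-61979358, minus strand: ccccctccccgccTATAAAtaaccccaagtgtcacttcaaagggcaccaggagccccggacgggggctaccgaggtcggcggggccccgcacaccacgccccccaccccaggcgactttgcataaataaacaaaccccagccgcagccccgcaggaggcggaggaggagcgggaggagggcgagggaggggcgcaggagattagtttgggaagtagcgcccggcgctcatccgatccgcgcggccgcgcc
Col25a1, chr3:130180595-130180844, plus strand: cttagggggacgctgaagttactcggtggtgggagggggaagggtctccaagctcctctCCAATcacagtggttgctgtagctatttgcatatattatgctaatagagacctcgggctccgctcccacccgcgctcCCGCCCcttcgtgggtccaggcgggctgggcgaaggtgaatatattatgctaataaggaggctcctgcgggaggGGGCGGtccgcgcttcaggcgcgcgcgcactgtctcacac

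The letters did not part the chains in an obvious way. Col3a1, the chain with the steepest relation to the markers, and Col13a1, which did not pass, each held a single match to TATAAA and none to the GC box. The CCAAT box was present in 7 of 14 windows of the chains that followed the markers and in 3 of 7 windows of the tested chains that did not, against 33.8% of all 32851 windows. Col6a2 and Col18a1 entered the 14 with more than a single window each, and Col1a1, Col5a2, Col12a1 and Col14a1 had none. Of all 38 windows of the chains, 20 lie on no annotated exon. The GC box was present in 9 of 14 and 4 of 7, against 32.7% of all windows. The TATA box was present in 1 of 14 and 2 of 7 (12.4% of all windows), and the AP-1 site in 1 of 14 and 0 of 7 (4.46%). A match is a run of letters and no measurement of binding.

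The fibroblast marker level of each line was the mean log2(FPKM + 1) of 20 fibroblast genes that are no collagens (such as Fn1, Sparc, Postn and Pdgfrb). It was 4.99, 3.59, 4.89 and 3.25 in control lines 29, 37, 44 and 45 and 3.63, 4.09, 4.54 and 3.57 in ICSI lines 11, 17, 20 and 21. The full list of 23 markers summed to 356 to 1239 FPKM over the control and 422 to 914 FPKM over the ICSI lines, with no marker at 0 in all lines. The groups overlapped, at 4.18 ± 0.89 (SD, n = 4) for control and 3.96 ± 0.45 (SD, n = 4) for ICSI (exact two-sided permutation test, p = 0.686). In such bulk RNA, fewer cells of a type and less RNA per cell cannot be told apart.

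Of the 24 chains tested, 16 rose with the fibroblast marker level and none fell, by limma with label form as covariate and Benjamini-Hochberg adjusted p over 11980 genes. Among all genes tested, 5.12% rose and 2.40% fell. At an unadjusted p under 0.05, 18 chains rose and 1 fell, Col17a1, where 2762 of 11980 genes passed in either direction. By limma-voom on the recovered reads, 16 chains again rose and none fell, against 658 rising and 340 falling of 11938 genes. The median slope was 0.77 log2 per unit of marker level for the 24 chains and −0.016 for all genes. Whether fibroblasts in the cultures supplied these reads was not tested. Control lines 29 and 44, which had the highest marker levels, carried part of the calls. Without both, 9 of 22 chains passed (Col1a2, Col3a1, Col4a1, Col4a2, Col5a2, Col6a1, Col6a3, Col8a1 and Col18a1). Among all genes, 250 of 11935 rose in that fit.

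**Figure D1:**
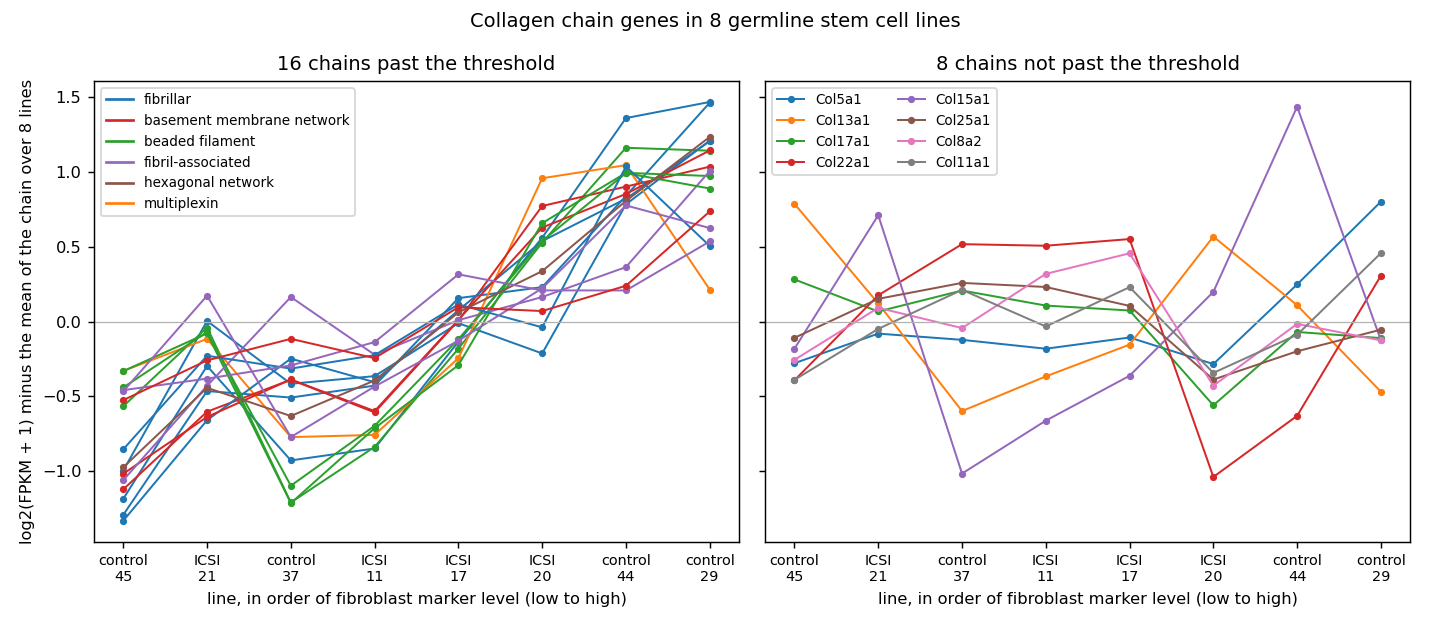
The log2(FPKM + 1) of each tested chain minus its own mean over 8 lines, by line in order of fibroblast marker level, for the 16 chains that rose with the markers (left, coloured by structural class) and the 8 that did not pass (right, coloured by chain). Of the 16 chains, 11 are lowest in control line 45 and 5 in control line 37. The highest value is in control line 29 for 10 of them and in control line 44 for 6, while the other 8 chains cross each other.

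The fibrillar chains included the most abundant collagens. Col1a1 (ENSMUSG00000001506, mm10 chr11:94936224-94953042, plus strand), the alpha 1 chain of type I collagen, stood at 136, 43.4, 101 and 28.7 FPKM in control lines 29, 37, 44 and 45 and at 45, 57.8, 50.1 and 58.4 FPKM in ICSI lines 11, 17, 20 and 21. Control lines 29 and 44 were far above the rest, and ICSI line 20 was lower than line 21 despite its higher marker level. Its slope was 0.91 ± 0.17 (SE; limma, adjusted p = 0.00994). Pearson's r with the marker level over 8 lines was 0.872 (exact permutation, p = 0.00236, adjusted 0.00471 over 6 tests) and Spearman's rho 0.738 (exact permutation, p = 0.0458, adjusted 0.0687). The relation rested on control lines 29 and 44, since r was 0.582 and the slope 0.47 (limma, adjusted p = 0.321) without them. The call was also lost without control line 45 alone (0.86, limma, adjusted p = 0.06).

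Col1a2 (ENSMUSG00000029661, chr6:4504814-4541544, plus strand), the alpha 2 chain of the same trimer, followed the markers more closely. Its level was 88.8, 21.9, 57.3 and 12.3 FPKM in the control lines and 23.2, 35.3, 37.2 and 22.6 FPKM in the ICSI lines, in the order given for Col1a1. The order of the lines was close to that of the marker level, with 7.22 times as much in control line 29 as in control line 45. Its slope was 1.25 ± 0.092 (SE; limma, adjusted p = 6.82e-05), with r of 0.962 (exact permutation, p = 4.96e-05, adjusted 0.000298) and rho of 0.976 (exact permutation, p = 0.000397, adjusted 0.00119). Without control lines 29 and 44, r was 0.918. Label form left these relations in place, with r of 0.882 for Col1a1 and 0.982 for Col1a2 after its removal.

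Col3a1 (chr1:45311538-45349706, plus strand), the sole chain of type III collagen, had the steepest slope of the chains tested, 1.51 ± 0.10 (SE; limma, adjusted p = 4.79e-05). Its level was 138, 25.4, 128 and 21.1 FPKM in control lines 29, 37, 44 and 45 and 26.9, 44.8, 73.1 and 39.9 FPKM in ICSI lines 11, 17, 20 and 21. Control lines 29 and 44 were nearly equal and ICSI line 20 came next. Its exons overlap those of Gm47302 on the same strand.

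Type V collagen, which enters fibrils with type I and limits their width, split between its chains. Col5a2 (chr1:45374321-45503282, minus strand, next to Col3a1) stood at 26.8, 9.15, 20.3 and 3.79 FPKM in the control and 8.10, 11.7, 16.5 and 6.63 FPKM in the ICSI lines, with a slope of 1.21 ± 0.081 (limma, adjusted p = 4.79e-05). Col5a3 rose less steeply, by 0.76 ± 0.14 (adjusted p = 0.0102), over 1.58 to 8.57 FPKM. Its call was lost without control line 45 (0.68, limma, adjusted p = 0.0639). Col5a1, the chain common to most type V trimers, was more abundant than either, at 23.4 to 50.8 FPKM, and did not pass (slope 0.39 ± 0.12, adjusted p = 0.0931). Its slope was 0.18 without control line 29 (adjusted p = 0.326) and 0.47, past the threshold, without ICSI line 20 (adjusted p = 0.031). Col5a1 shares exon positions with 2810430I11Rik and Gm13372 on the opposite strand, and since the labels and the methods name different library kits, the use of strand is uncertain.

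Col11a1, a chain of type XI collagen best known from the fibril cores of cartilage, was the other fibrillar chain that did not pass. It stood at 1.81, 1.37, 0.925 and 0.562 FPKM in the control lines and 1.00, 1.40, 0.613 and 0.978 FPKM in the ICSI lines. Each label form 1 line was above each form 2 line. Its slope was 0.14 ± 0.10 (limma, adjusted p = 0.434). Of the 11 fibrillar chains, 7 were tested and 5 rose.

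The basement membrane chains Col4a1 (chr8:11198423-11312826, minus strand) and Col4a2 (chr8:11312805-11449287, plus strand) build the main type IV network as one trimer and lie head to head, their first exons overlapping. Col4a1 was at 29.6, 10.4, 26.9 and 5.86 FPKM in the control lines and 8.80, 14.0, 24.5 and 8.83 FPKM in the ICSI lines. Col4a2 was at 25.3, 8.10, 20.5 and 4.88 FPKM and at 6.86, 11.0, 17.4 and 6.65 FPKM in the same order. Both were highest in control line 29 and lowest in control line 45. The slopes were 1.20 ± 0.082 for Col4a1 and 1.18 ± 0.069 for Col4a2 (limma, adjusted p = 4.79e-05 and 4.53e-05), and Col4a2 had the highest r with the marker level of the 24 chains, 0.992.

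The other head-to-head pairs of type IV were low. Col4a5, which with Col4a6 serves more specialised basement membranes and lies beside it on chromosome X, was at 2.57, 0.978, 1.53 and 0.489 FPKM in the control and 0.809, 1.29, 1.25 and 0.790 FPKM in the ICSI lines, and rose with the markers (slope 0.53 ± 0.084, limma, adjusted p = 0.00461). Col4a6 was listed at 0.114, 0.0754, 0.0613 and 0.0256 FPKM and at 0.0668, 0.0934, 0.0445 and 0.0255 FPKM, below the tested range. Col4a5 was higher than Col4a6 in every line.

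Col4a3 and Col4a4, the pair of filtering basement membranes such as that of the kidney glomerulus, were below the tested range, with 11 to 75 reads a line for Col4a3 and 1 to 49 for Col4a4. Col4a3 was at 0.0909, 0.141, 0.230 and 0.157 FPKM in the control and 0.107, 0.0392, 0.156 and 0.0727 FPKM in the ICSI lines. Col4a4 was at 0.00356, 0.185, 0.0806 and 0.100 FPKM and at 0.136, 0.117, 0.0183 and 0.0109 FPKM. Neither was highest in control line 29, which carried the most Col4a1 and Col4a2.

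Type VI collagen, a beaded microfibril around cells, moved as a block. Col6a1 ranged from 7.58 to 43.4 FPKM, Col6a2 from 3.44 to 17.9 FPKM and Col6a3 from 3.48 to 19.7 FPKM. All 3 were lowest in control line 37, not in control line 45 which had the lowest marker level, and highest in control line 44, closely followed by control line 29. The slopes were 1.19 ± 0.13, 1.01 ± 0.11 and 1.05 ± 0.13 (limma, adjusted p = 0.000544, 0.000566 and 0.000908). Col6a4, Col6a5 and Col6a6 did not reach the filter.

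Hexagonal network chains parted within type VIII, a collagen of vessel walls and of the membrane behind the cornea. Col8a1 (chr16:57624258-57754737, minus strand) was at 9.17, 1.79, 6.56 and 1.20 FPKM in the control and 2.29, 3.51, 4.46 and 2.18 FPKM in the ICSI lines, with a slope of 1.11 ± 0.085 (limma, adjusted p = 8.01e-05). Col8a2 was at 0.917, 1.03, 1.07 and 0.752 FPKM and at 1.61, 1.87, 0.554 and 1.23 FPKM, highest in ICSI lines 17 and 11, with a slope of −0.090 ± 0.13 (adjusted p = 0.727). The Col8a1 to Col8a2 ratio ran from 1.42 in ICSI line 11 to 10.0 in control line 29.

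Fibril-associated chains, which coat or bridge fibrils, rose in 3 of the 4 tested. Col12a1 ranged from 4.18 to 20.7 FPKM (slope 0.77 ± 0.11, limma, adjusted p = 0.0018), Col16a1 from 1.54 to 6.43 FPKM (0.70 ± 0.12, adjusted p = 0.00622) and Col14a1 from 0.953 to 2.89 FPKM (0.49 ± 0.087, adjusted p = 0.00805). Col22a1 (chr15:71795795-72034227, minus strand), known from the muscle to tendon junction, was the exception. It stood at 3.71, 4.45, 1.46 and 1.90 FPKM in the control and 4.41, 4.58, 0.853 and 3.30 FPKM in the ICSI lines, with a slope of −0.31 ± 0.15 (adjusted p = 0.236), and each form 1 line was above each form 2 line.

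The multiplexins, chains of the basement membrane zone whose ends can be cut off as endostatin-like fragments, differed too. Col18a1 ranged from 8.64 to 33.0 FPKM and rose (slope 0.82 ± 0.075, limma, adjusted p = 0.000194), a call that was lost without label form as covariate, at nearly the same slope (0.82, adjusted p = 0.115). Col15a1 spanned 21.2-fold, from 0.284 FPKM in control line 37 to 6.03 FPKM in control line 44, the widest span of the tested chains, and did not pass (slope 0.57 ± 0.19, adjusted p = 0.11). Its slope was 0.35 without control line 44 (adjusted p = 0.331) and 0.71, past the threshold, without ICSI line 20 (adjusted p = 0.0275).

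None of the 3 transmembrane chains tested rose with the markers. Col17a1 (chr19:47646344-47692094, minus strand), a hemidesmosome component of epithelia, was at 2.81, 3.75, 2.92 and 4.00 FPKM in the control and 3.43, 3.33, 1.79 and 3.31 FPKM in the ICSI lines. It was lowest in ICSI line 20 and highest in control line 45, where the marker level was lowest, but its slope of −0.27 ± 0.11 did not pass (limma, adjusted p = 0.164).

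Col13a1 (chr10:61838236-61979108, minus strand), a chain of cell adhesion sites and the neuromuscular junction, was at 7.04, 6.35, 11.0 and 18.2 FPKM in the control and 7.63, 9, 15.5 and 11.1 FPKM in the ICSI lines. Each form 2 line was above each form 1 line, and control line 29, which had the most Col1a1, was the second lowest. Col25a1, a mainly neuronal chain, was at 1.15, 1.67, 0.945 and 1.07 FPKM and at 1.62, 1.40, 0.706 and 1.48 FPKM, lowest in ICSI line 20. The slopes were −0.10 ± 0.13 for Col13a1 and −0.20 ± 0.089 for Col25a1 (limma, adjusted p = 0.68 and 0.222).

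**Figure D2:**
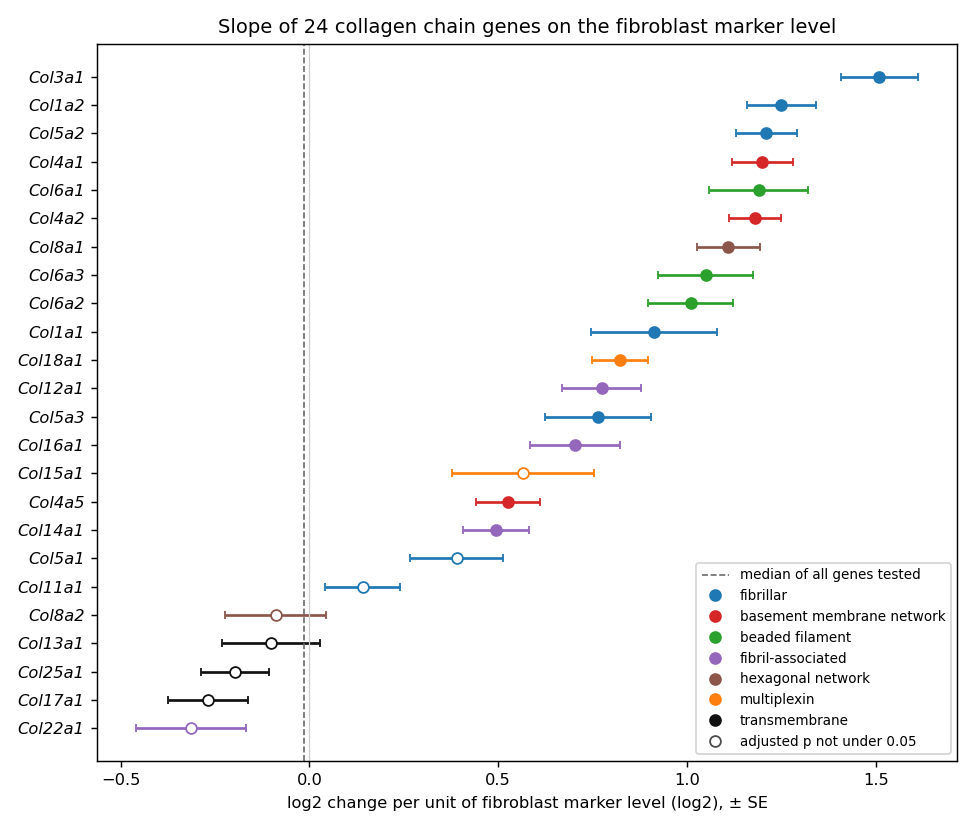
Slope of log2(FPKM + 1) on the fibroblast marker level for each tested chain, ± SE from limma over 8 lines, coloured by structural class, with open symbols for chains not past an adjusted p of 0.05. All filled symbols lie between 0.49 and 1.51, and the 3 transmembrane chains lie below 0.

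**Figure D3:**
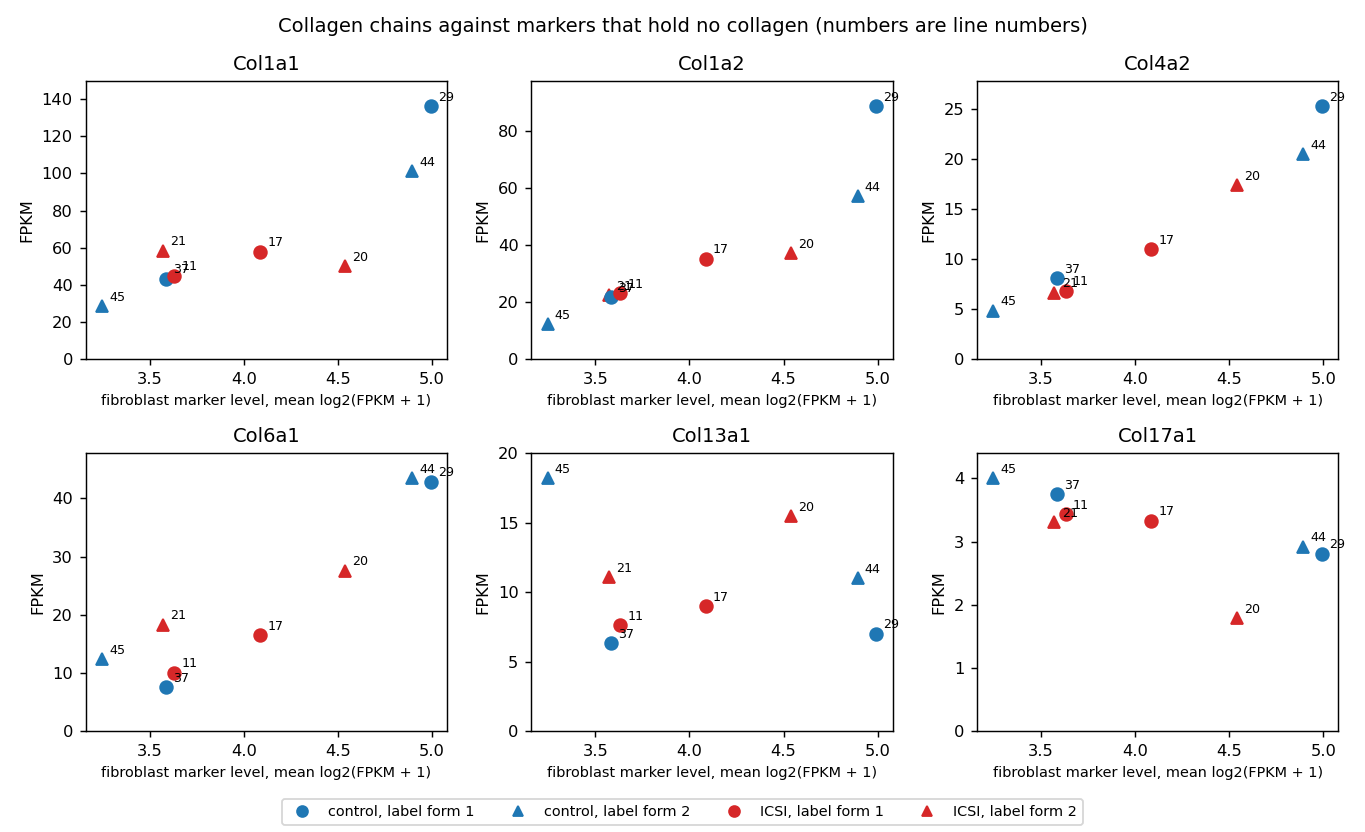
FPKM of 6 chains against the fibroblast marker level, a point for each line, coloured by group and shaped by label form. Col1a2 and Col4a2 climb along the marker level, Col1a1 lies between 28.7 and 58.4 FPKM below control lines 44 and 29, Col13a1 separates by label form, and Col17a1 is lowest in ICSI line 20.

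Pairs of chains were then compared over the 8 lines. These correlations of log2(FPKM + 1) are descriptions with n = 8 and no test, and the points share the library and its label form. The 120 pairs among the 16 chains that rose had a median r of 0.859, with a lowest value of 0.404 for Col18a1 and Col12a1. The 28 pairs among the 8 chains that did not pass had a median of 0.074, and the 128 mixed pairs a median of −0.098. After removing label form the medians were 0.935, −0.0063 and −0.24. Since the 16 chains were separated by their relation to the same markers, the first median follows in part from that choice.

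The closest pairs were trimer partners of types IV and VI. Col6a1 and Col6a2 had r of 0.997, Col4a1 and Col4a2 0.995, and Col6a2 and Col6a3 0.993. Between types, Col1a2 and Col8a1 had the highest, 0.988. The partners of types I and V were less close, with 0.951 for Col1a1 and Col1a2 and 0.724 for Col5a1 and Col5a2. After removal of both marker level and label form, the residual r was 0.970 for Col6a1 and Col6a2, 0.842 for Col4a1 and Col4a2, 0.947 for Col1a1 and Col1a2 and 0.985 for Col3a1 and Col1a2. It was −0.23 for Col1a2 and Col4a2, which had r of 0.959 before removal, and −0.31 for Col1a2 and Col4a1. The residual values did not follow the structural classes, since Col1a2 had 0.062 with the fibrillar Col5a2 but 0.71 with the type IV chain Col4a5.

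Some chains that did not pass had close partners. Col22a1 and Col25a1 had r of 0.924, and Col5a1 had 0.908 with Col1a1. Col13a1 and Col11a1 had −0.882, the lowest of all pairs. Col22a1 and Col25a1 still had 0.873 after removal of marker level and label form. That residual value was not particular to the pair. Col22a1 had 0.947 with Col1a1 and 0.935 with Col1a2, which both passed, but −0.40 with Col4a1.

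The ratio within a type gave the same picture in FPKM. Col4a1 over Col4a2 stayed between 1.17 and 1.40 in all 8 lines, while Col4a1 spanned 5.04-fold and Col4a2 5.19-fold. Col6a1 over Col6a2 stayed between 2.07 and 2.58, and Col6a1 over Col6a3 between 1.71 and 2.20. Col1a1 over Col1a2 was wider, from 1.35 in ICSI line 20 to 2.59 in ICSI line 21. Col5a1 over Col5a2 was widest of these, from 1.42 in ICSI line 20 to 6.20 in control line 45, and was at or below 1.89 in the 3 lines with the highest marker level.

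**Figure D4:**
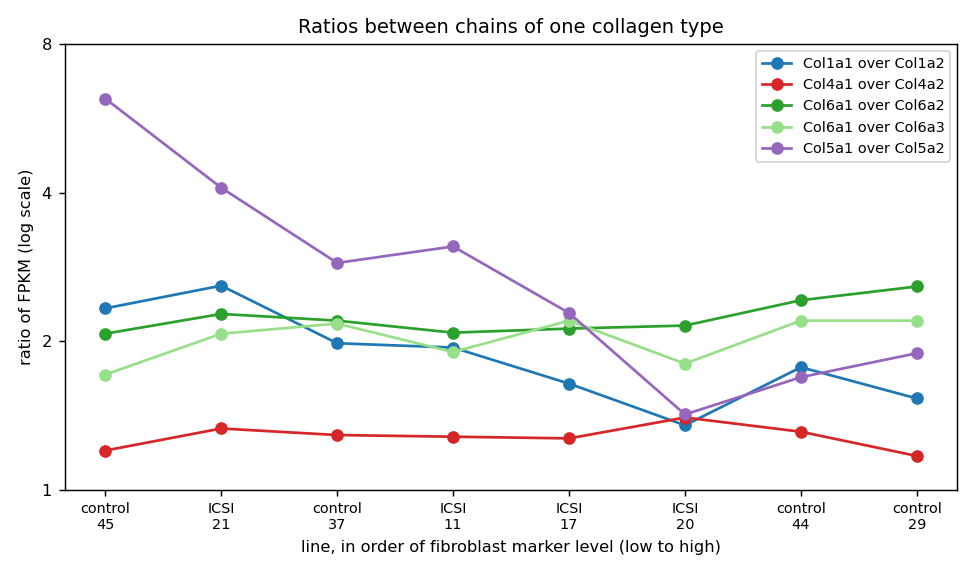
Ratio of FPKM between chains of a collagen type (log axis) in each line, in order of fibroblast marker level. The type IV and type VI ratios stay within 1.17 to 1.40 and 1.71 to 2.58, the type I ratio runs from 1.35 to 2.59, and the Col5a1 to Col5a2 ratio falls from 6.20 in control line 45 to 1.42 in ICSI line 20.

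The study's own question was whether lines from ICSI offspring differ from control lines. No chain passed the test. Of the 24 chains, 0 passed in limma (background 0% of 12000 genes), 0 had an unadjusted p under 0.05, against 55 of all genes, and 0 passed by limma-voom. The median log2 difference of the chains, ICSI minus control, was −0.18, against −0.013 for all genes, with 19 chains lower and 5 higher in ICSI. The range ran from −0.36 for Col3a1 to 0.22 for Col8a2, and the exact two-sided permutation tests gave p of 0.314 to 1, where 4 against 4 lines allow no p below 0.0286. The share of all genes lower in ICSI was not computed. Chains that rose with the markers moved together, so the 19 are not separate observations.

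The higher control means of the type I chains came with high values in control lines 29 and 44. The control mean of Col1a1 was 77.2 ± 49.9 FPKM (SD, n = 4) and its ICSI mean 52.8 ± 6.43 FPKM (SD, n = 4), −0.29 ± 0.42 (SE) as a log2 difference. For Col1a2 the means were 45.1 ± 35.0 and 29.6 ± 7.75 FPKM (−0.25 ± 0.53). Without control line 29, the differences of Col1a1 and Col1a2 were 0.06 and 0.19. Without control lines 29 and 44 the median over the 22 chains tested was 0.56, again with 0 called. In that limma fit 6 of the 22 chains were higher in ICSI at an unadjusted p under 0.05 and 0 lower. Of all 11955 genes, 161 reached it in either direction. Both lines left out were control lines with the highest marker levels, so this shift towards ICSI follows in part from that choice. The chains that rose with the markers moved together and are not separate observations. All 16 chains that followed the markers had the larger SD on the log2 scale in control lines, as had 59.8% of all genes tested. The marker level itself had the larger SD in control lines (0.89 against 0.45). Since the 16 chains were chosen by their relation to it, their count follows in part from that choice.

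The ICSI difference took different signs in the label forms for many chains, a contrast that did not pass its test. Within form 1 the difference was −0.76 for Col3a1 and −0.63 for Col4a1, whereas within form 2 it was 0.048 and 0.19. Col1a1 kept its sign, at −0.58 in form 1 and −0.0010 in form 2. Both forms gave the same direction for 8 of 24 chains. These chains are not separate observations, since those that rose with the markers had a median r of 0.859 with each other. The share of all genes with the same direction in both forms was not computed. With 2 lines a group in each form, no test was run within a form. The interaction of group and form passed for 0 chains and 0 of 12000 genes, with 147 genes and 0 chains at an unadjusted p under 0.05.

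Between label forms, 2 of 24 chains passed, against 16.0% of all genes (10.2% higher and 5.76% lower in form 2). Col13a1 was higher in form 2, at 14.0 ± 3.51 FPKM against 7.51 ± 1.13 FPKM (SD, n = 4 in both), by 0.79 ± 0.17 on the log2 scale (limma, adjusted p = 0.0239). Col22a1 was lower, at 1.88 ± 1.04 FPKM against 4.29 ± 0.391 FPKM (−0.94 ± 0.23, adjusted p = 0.0316). In leave-one-out fits the Col13a1 call was kept only without control line 44, control line 45 or ICSI line 21, and the Col22a1 call only without ICSI line 20 or 21. Cell type markers moved with label form as well. Of the 15 germ cell markers, 8 were higher in form 2, such as Etv5 (1.16 ± 0.15, limma, adjusted p = 0.00792) and Id4 (1.11 ± 0.23, adjusted p = 0.021), and none lower, and their sum was 1260 to 1445 FPKM in form 1 and 1530 to 1780 FPKM in form 2. Sox9 of the Sertoli list and Kdr of the endothelial list were higher in form 2 (1.03 and 0.93), and Wt1 of the Sertoli list and Lyz2 of the macrophage list lower (−0.82 and −1.92). These marker genes were chosen as examples after their values were seen. The part of these cell types in the collagen differences between forms was not tested. Tool versions, which differ in the labels but not in the methods, depth and any difference in library preparation between the forms cannot be told apart.

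At equal marker level and group, an alternative added after seeing the data, 9 of 24 chains differed between forms, against 28.7% of all genes (16.4% higher and 12.2% lower in form 2). Higher in form 2 were Col15a1 (1.09 ± 0.25, limma, adjusted p = 0.0162), Col13a1 (0.79 ± 0.17, adjusted p = 0.013), Col18a1 (0.79 ± 0.093, adjusted p = 0.00339) and the type VI chains Col6a3, Col6a1 and Col6a2 (0.63, 0.56 and 0.52). Lower were Col22a1 (−0.95 ± 0.19, adjusted p = 0.0113), Col12a1 (−0.47 ± 0.14, adjusted p = 0.0362) and Col11a1 (−0.43 ± 0.13, adjusted p = 0.0408). Both multiplexins and all 3 type VI chains tested were on the higher side, and Col4a1 and Col4a2 were near 0, at −0.0097 and −0.071. The type VI chains had r of 0.989 to 0.997 with each other and are not separate observations. Whether the 6 higher and 3 lower chains exceed the shares of all genes was not tested, nor was any class.

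**Figure D5:**
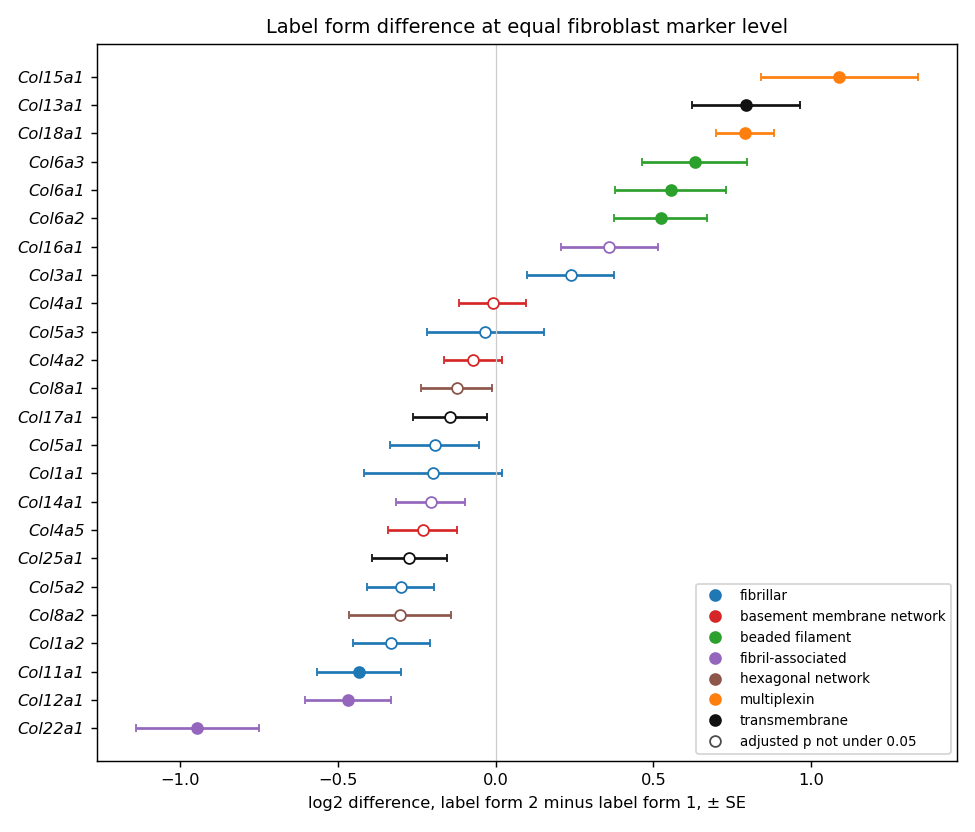
Log2 difference of each tested chain, label form 2 minus label form 1, at equal fibroblast marker level and group, ± SE from limma over 8 lines, coloured by structural class, with open symbols for chains not past an adjusted p of 0.05. The 9 filled symbols lie at both ends, from −0.95 for Col22a1 to 1.09 for Col15a1.

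The 20 chains below the filter are mostly known from cartilage, skin or other restricted tissues. Their highest value in any line was 1.56 FPKM, of Col7a1, the anchoring fibril chain of skin, in control line 29. Col2a1, the main fibrillar chain of cartilage, was between 0.0793 FPKM in control line 44 and 1.16 FPKM in control line 29, and Col10a1, a chain of hypertrophic cartilage, between 0.109 and 0.505 FPKM. Of the 20 chains, 19 were above 0 in all lines, and Col9a1 was listed at 0 in ICSI lines 11 and 20.

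Genes that modify, export, cross-link, bind and degrade collagen were described by counts. Of 4 crosslinking genes tested, all 4 rose with the fibroblast markers (median slope 0.85), where 5.12% of all genes rose. Lox, the lysyl oxidase that starts the cross-links, ranged from 17.6 to 76.0 FPKM (slope 0.86 ± 0.16, limma, adjusted p = 0.0123), and Loxl1 from 2.73 to 12.4 FPKM (1.06 ± 0.062, adjusted p = 4.53e-05). Of 5 collagen-degrading enzymes tested, 4 rose (median 1.34), among them Mmp2 (1.58 ± 0.14, adjusted p = 0.000164) and Mmp13 (1.67 ± 0.23, adjusted p = 0.00217), and Mmp9 did not pass (−0.094 ± 0.21, adjusted p = 0.828).

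Of 16 genes tested that hydroxylate or fold procollagen, 5 rose (median slope 0.19), with Serpinh1, the collagen chaperone of the endoplasmic reticulum, at 23.5 to 74.7 FPKM (0.85 ± 0.091, limma, adjusted p = 0.000486). The abundant P4hb, a subunit of prolyl hydroxylase with other uses, was at 278 to 381 FPKM and did not pass (0.14 ± 0.069, adjusted p = 0.245). Of 8 export and processing genes tested 3 rose (median 0.19), including the enhancer of procollagen cleavage Pcolce (1.05 ± 0.092, adjusted p = 0.000164) and the protease Bmp1 (0.71 ± 0.11, adjusted p = 0.00335). Of 4 receptors tested, Ddr2 and Mrc2 rose (0.96 and 0.45), with a median of 0.38 for the list. No gene of these 5 lists fell.

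The 10 genes most like the mean of Col1a1 and Col1a2 over the 8 lines, by Pearson's r of log2(FPKM + 1) and with no test, were Htra1 (0.987), Kirrel (0.984), Adamts1 (0.982), Sparc (0.974), Dpysl3 (0.967), Fez1 (0.967), Il1r1 (0.966), Rarres2 (0.965), Prelp (0.964) and Fn1 (0.958). Sparc and Fn1 are among the fibroblast markers.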

How the data were processed

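Single-read RNA-seq of 8 lines was used. The authors trimmed reads with cutadapt, mapped them to mm10 with STAR and GENCODE M25, counted with htseq-count, and deposited FPKM values per gene and line. The labels name a SMARTER kit and the methods a TruSeq stranded kit. Columns of the authors' DESeq2 comparison (log2 fold changes and adjusted p-values) stand in the same deposited table and were not used.

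Groups came from the sample titles. Log2(FPKM + 1) was tested in limma 3.58.1 (R 4.3.3, lmFit, eBayes with trend, two-sided) on the 12000 genes whose mean reached 1 FPKM, and calls were made at a Benjamini-Hochberg adjusted p under 0.05. A pseudocount of 1 understates changes of low genes. The ICSI fit held the group, the label form fit held form and group, and the marker fit held the marker level and label form, with the markers left out of the background. The scripts were tested on simulated data. The study tested counts, for which the linear model on FPKM stands in.

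Low values were multiples of 1 read, and whole reads (within 0.05) were recovered for 11958 of the genes tested (99.03% of genes above 0), with exon lengths of GENCODE M21 on the same assembly. Col5a1, Col13a1 and Col25a1 needed another length. These reads served limma-voom.

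Members, lists and tests were chosen with earlier results of these data known. Values by line are given for Col1a1 and Col1a2, for the 6 chains with the highest and the 6 with the lowest r with the marker level, for chains past a threshold between groups or forms, and for the head-to-head type IV pairs. From each list, up to 2 genes of the highest mean and 2 of the steepest slope that passed were eligible as examples, beside named exceptions that did not pass. Alternatives were other scalings, filters, pseudocounts, marker summaries, covariates and leaving out lines.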

Additional observations from a re-analysis of the deposited data

Results flagged for a closer look

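A single value stood apart. In the ICSI lines, Col17a1 of line 20 was 1.79 FPKM, while the other ICSI lines were at 3.31 to 3.43 FPKM. Its gap to the nearest line was 0.941 of the range of the group on the log2 scale, above Dixon's critical value for 4 samples. It was the only one of 50 groups of 4 lines examined (24 chains and the marker level, in each group), where chance flags about 5%. ICSI line 20 also had the highest fibroblast marker level of the ICSI lines, 4.54, and the lowest Col22a1, Col25a1 and Col8a2.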

How the results depend on the processing

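No paired analysis was possible because control and ICSI lines share no replicate numbers. The count of 0 chains between ICSI and control lines and the count of 0 for the interaction held under every alternative run. The 16 rising chains ranged from 14 to 18 when single lines were left out and fell to 9 of 22 without control lines 29 and 44. For the 16 chains, 124 of 128 leave-one-out slopes and 179 of 186 under other settings kept their direction and call, and none reversed. The Col1a1 slope ranged without single lines down to 0.75 and lost its call without control line 29, 44 or 45 (limma, adjusted p = 0.0504, 0.0573 and 0.06).

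Between label forms the 2 chains became 9 at equal marker level, 1 at a mean of at least 5 FPKM, 5 of 32 after rescaling to TPM, and 0 to 3 when single lines were left out. The cause was not tested. Without control lines 29 and 44 the slopes of Col5a1 and Col13a1 were −0.031 and 0.087. With single lines left out, the slope ranged from −0.18 to 0.049 for Col13a1 and from −0.20 to 0.030 for Col8a2. In alternatives added after seeing the data, the ICSI difference without control lines 29 and 44 was 0.56 for Col1a1, 0.77 for Col1a2, 0.88 for Col3a1, 0.65 for Col4a1, 0.56 for Col4a2, 0.037 for Col5a1 and −0.048 for Col13a1. Both lines left out had the highest marker levels, so the rise of these differences follows in part from that choice. With the marker level as covariate the ICSI difference was 0.025 for Col1a2 and 0.053 for Col4a1. With single lines left out, this difference ranged from −0.67 to 0.062 for Col1a1, −0.73 to 0.19 for Col1a2, −0.81 to 0.073 for Col3a1, −0.63 to 0.093 for Col4a1, −0.69 to 0.035 for Col4a2, −0.22 to 0.0054 for Col17a1 and −0.096 to 0.36 for Col13a1, positive for the first 5 chains when control line 29 was out and also for Col3a1 and Col4a1 when control line 44 was out.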

Other observations

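Xist, the transcript of the inactive X chromosome of female cells, was examined because feeder embryos can be of either sex whereas the lines come from testes. It was at 1.37, 0.538, 0.211 and 0.239 FPKM in control lines 29, 37, 44 and 45 and at 0.945, 1.08, 0.112 and 0.351 FPKM in ICSI lines 11, 17, 20 and 21. It was below the tested range, was higher in each label form 1 line than in each form 2 line, and did not follow the fibroblast marker level (r = 0.148, exact permutation, p = 0.712, n = 8). Control line 44, second in fibroblast markers and in Col1a1, was among the lowest in Xist.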
